A study of Homo sapiens with 12 samples.

Results

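The 52 genes described here encode proteins of the G2 phase of the cell cycle and of mitosis, the step in which a cell condenses, aligns and separates its chromosomes and then divides. They were chosen by name, as rows of the deposited count tables whose symbol is on a fixed list, and all 52 were found in both tables, of 17992 genes in the tables together. The bulk RNA came from MIO-M1 cells, an established human cell line of Müller glia, the main glial cells of the retina, with the wild-type genotype in every group and taken on day 3 after transfection of small interfering RNA (siRNA). One experiment set siMapk14, an siRNA against MAPK14, the gene of the stress kinase p38-alpha, against siControl, and the other set siMapk8+9, siRNAs against MAPK8 and MAPK9, which encode the stress kinases JNK1 and JNK2, against a siControl of its own. Each of the 4 groups had 3 libraries, the experiments carry different batch labels, and all groups are 1 cell line. Whether libraries of 1 group are separate cultures is not given, and p-values therefore cover only the spread among these libraries, which may be technical. The stated purpose was to find which genes change downstream of the targeted kinases.

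Entry into mitosis is driven by CDK1 with its cyclin partners, which the CDC25 phosphatases switch on. Spindle microtubules, moved and bundled by kinesins, attach to chromosomes at kinetochores, and the spindle checkpoint holds anaphase until every chromosome is attached. The anaphase promoting complex then marks securin and the cyclins for destruction. Most of these genes are transcribed in a wave late in the cycle. The repressor complex DREAM and the activators B-MYB and FOXM1 act there through a promoter element called the cell cycle genes homology region (CHR), and the factor NF-Y binds CCAAT boxes close to it. In the mature retina Müller glia do not normally divide, whereas a cultured line does.

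Promoters are shown for 5 members, because they hold the element shared by most of the group, lack it, or belong to a gene that moved unlike the rest. RefSeq promoter sequences of build GRCh38.p14 matched 45 of the 52 members (57 promoters), and 7 had no entry (AURKA, BIRC5, FAM83D, RACGAP1, TPX2, TTK and UBE2C). Each line gives the 250 bases before the annotated start, read 5′ to 3′ on the strand of the gene. Capitals mark the CHR letters searched (TTTGAA or TTCGAA) and the CCAAT box (CCAAT), each on both strands, so that TTCAAA and ATTGG count as well. PLK1 (chr16:23678639-23678888 on the plus strand) encodes polo-like kinase 1, CCNB2 (chr15:59104896-59105145 on the plus strand) cyclin B2, and MKI67 (chr10:128126424-128126673 on the minus strand) the proliferation marker Ki-67. CENPE (chr4:103198344-103198593 on the minus strand) encodes a kinesin motor of the kinetochore, and PTTG1 (chr5:160421605-160421854 on the plus strand, the first of its entries) encodes securin, the inhibitor of separase.
PLK1: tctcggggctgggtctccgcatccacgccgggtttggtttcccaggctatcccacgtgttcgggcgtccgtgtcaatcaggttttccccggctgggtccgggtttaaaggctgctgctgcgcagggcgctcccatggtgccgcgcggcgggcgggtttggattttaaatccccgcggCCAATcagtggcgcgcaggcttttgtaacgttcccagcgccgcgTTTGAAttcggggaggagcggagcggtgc
CCNB2: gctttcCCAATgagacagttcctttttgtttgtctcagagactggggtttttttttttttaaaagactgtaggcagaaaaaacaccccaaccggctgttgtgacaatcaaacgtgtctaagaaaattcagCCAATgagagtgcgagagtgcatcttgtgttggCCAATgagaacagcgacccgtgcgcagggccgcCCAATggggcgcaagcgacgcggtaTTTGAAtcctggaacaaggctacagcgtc
MKI67: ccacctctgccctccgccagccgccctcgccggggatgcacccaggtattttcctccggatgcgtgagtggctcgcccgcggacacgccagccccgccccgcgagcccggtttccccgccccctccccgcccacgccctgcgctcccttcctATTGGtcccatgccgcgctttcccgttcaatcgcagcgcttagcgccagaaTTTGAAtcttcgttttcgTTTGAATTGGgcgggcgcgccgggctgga
CENPE: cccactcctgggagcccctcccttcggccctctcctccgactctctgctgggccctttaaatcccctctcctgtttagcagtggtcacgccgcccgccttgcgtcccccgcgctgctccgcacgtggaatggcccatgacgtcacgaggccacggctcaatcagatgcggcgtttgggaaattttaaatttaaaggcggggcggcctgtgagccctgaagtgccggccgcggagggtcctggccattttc
PTTG1: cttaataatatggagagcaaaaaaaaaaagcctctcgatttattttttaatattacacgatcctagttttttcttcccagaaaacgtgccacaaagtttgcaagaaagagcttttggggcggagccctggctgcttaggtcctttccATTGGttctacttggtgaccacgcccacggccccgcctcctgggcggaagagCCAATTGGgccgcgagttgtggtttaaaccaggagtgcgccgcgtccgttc
PLK1 and CCNB2 each had CHR letters with their first base at -29 from the start, and MKI67 had them at -47 and -29. A CCAAT box stood upstream of the CHR letters in all 3, at -73 in PLK1, at -54 in the nearest of several in CCNB2 and at -98 in MKI67. In MKI67 the second CHR match shares 1 base with a further CCAAT match, and in PTTG1 CCAAT matches on opposite strands overlap at -51 and -48. CENPE had neither motif in its window and PTTG1 had no CHR letters there.

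CHR letters were found in 38 of the 57 member promoters (66.7%), and 16.4% of all 35116 promoters of the table held them in windows of the same 300 bases, 250 before the start and 50 after. A CCAAT box was found in 41 of 57 (71.9%) and in 34.6% of all promoters. Both occurred together in 31 of 57 (54.4%) and in 6.38% of all. The matches were placed alike, with CHR letters most frequent in the 25 bases from -50 to -26 (21.1% of member promoters) and CCAAT boxes in those from -75 to -51 (43.9%). Only CENPE, CKAP2, KIF2C and TACC3 had neither among the 45 members with an entry. A match is a stretch of letters and no measurement of binding. The 35 members with CHR letters had a median log2 fold change of -1.03 in siMapk14 and -0.69 in siMapk8+9 (-0.64 without replicate 2 of siMapk8+9), and the 10 members without them had -0.96 and -0.40 (-0.31). The groups also differed in median transcript length, at 3034 and 2496 bases. With the length trend described below removed, the medians were -0.96 and -0.88 in siMapk14 and -0.50 and -0.35 in siMapk8+9. The difference between the groups was not tested.

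**Figure D1:**
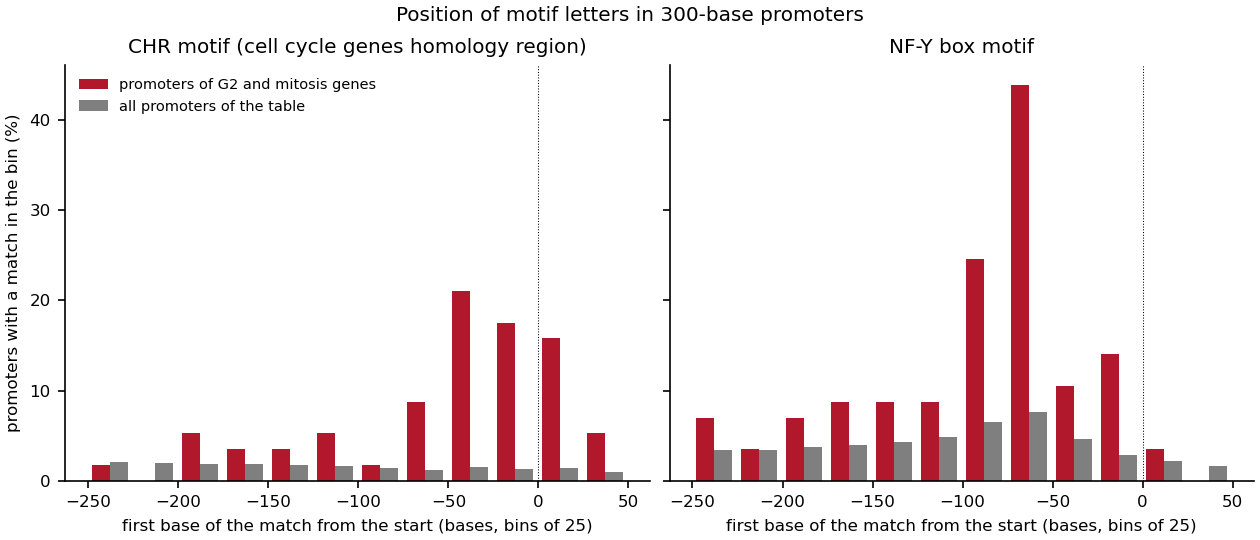
Percentage of promoters with the first base of a match in each 25-base bin, by distance from the annotated start in bases, for the 57 promoters of G2 and mitosis genes and for all 35116 promoters of the RefSeq table, with the CHR in the left panel and the box bound by NF-Y in the right one. In member promoters CHR matches peak from -50 to -26 (21.1%) and NF-Y box matches from -75 to -51 (43.9%).

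Several features of the libraries touch what follows. Total counts were 14516406 to 19463837 in siMapk14 and 9246294 to 20136463 in siMapk8+9, against 31040067 to 31510571 in the controls. The 13 mitochondrially encoded genes took 32.1% to 45.0% of counts in siMapk14 and 36.9%, 8.93% and 35.01% in siMapk8+9, against 1.56% to 2.03% in the controls (Wilson 95% intervals within 0.0307 percentage points, covering counting error only). Replicate 2 of siMapk8+9 stood apart. It held counts for 12 of 12 epithelial markers, against 6 to 11 of them in the other 11 libraries, so the levels rather than detection set it apart. KRT14 was at 353 CPM, KRT5 at 208 CPM and KRT17 at 252 CPM in replicate 2, each at most 0.65 CPM in the other libraries. The summed epithelial markers of replicate 2 came to 1404 CPM, against 68.0 to 103 CPM elsewhere. CPM are counts scaled to a common library total after TMM scaling, which sets the bulk of genes of a table at equal levels. Of the Müller glia markers, VIM, GLUL, SOX9 and SLC1A3 were present in every library, RLBP1 was listed at 0 in all 6 controls, and the list summed to 5510 to 6330 CPM in siMapk14 and 7357 to 10700.4 CPM in siMapk8+9, against 5239 to 5487 CPM in the controls. Most of each sum was VIM, at 4767 to 5594 CPM in siMapk14, 6319 to 9741 in siMapk8+9 and 4184 to 4603 in the controls. SLC1A3 was lower in both, at 17.4 to 28.6 CPM in siMapk14 (controls 39.1 to 46.3) and 15.9 to 50.9 CPM in siMapk8+9 (60.6 to 67.7). SOX9 and GLUL were below their controls in siMapk14. In siMapk8+9 GLUL was above them, and SOX9 was above them only in replicate 2. MAPK14 was at 43.6% of its control level in siMapk14, and MAPK8 and MAPK9 were at 36.1% and 35.9% in siMapk8+9. By replicate of siMapk8+9, MAPK8 was at 10.8, 8.67 and 10.7 CPM (controls 27.8 to 28.0). MAPK9 was at 28.1, 18.5 and 22.7 CPM (controls 63.4 to 65.2). The part of the mitochondrial share, the depth and the epithelial RNA in the results below was not tested. Most counts and effects in siMapk8+9 with all libraries are followed by those without replicate 2, and where none follows the value rests on all 3 libraries.

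After siMapk14 nearly the whole group of genes was lower. The 52 members together took 0.372%, 0.376% and 0.377% of nuclear-encoded counts in siMapk14, against 0.788%, 0.731% and 0.714% in its siControl. Of the 52, 47 fell, 1 rose (PTTG1) and 4 did not pass the test (MAD2L1, AURKB, CENPA and UBE2C), at an adjusted p under 0.05 in the quasi-likelihood test of edgeR with Benjamini-Hochberg adjustment over all genes. Over all genes tested, 30.5% were called lower and 29.4% higher. The members' median log2 fold change was -0.99, and that of all genes was -0.02. In 47 members every knockdown library lay below every control, as in 35.7% of all genes, and in 1 every knockdown library lay above, as in 32.9%. Values after ± are standard errors, and with total counts in place of TMM the median of all genes was -0.79 here and -0.71 in the other experiment, so every change is relative to the bulk of genes. In these bulk samples fewer cells in G2 and mitosis and less of each RNA per cell cannot be told apart.

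After siMapk8+9 the group split. Members took 0.461%, 0.433% and 0.437% of nuclear-encoded counts in siMapk8+9, against 0.778%, 0.762% and 0.758% in its siControl, and 28 of 52 fell, 4 rose (PTTG1, UBE2C, AURKB and MAD2L1) and 20 did not pass the test. Over all genes, 26.1% were called lower and 26.8% higher. With total counts in place of TMM, 46 members were lower and 1 higher, where 37.9% of all genes were called lower and 8.56% higher, and in siMapk14 52 were lower and 0 higher, where 63.4% and 5.53% were. The members' median log2 fold change was -0.47, against -0.05 for all genes. Without replicate 2, 29 members were lower and 11 higher with a median of -0.39, where 37.5% and 33.6% of all genes were called. Knockdown libraries lay wholly below the controls in 31 members and wholly above them in 5, as in 36.3% and 31.6% of all genes. Without replicate 2 these became 31 and 13, against 44.8% and 37.1%. All 28 members that fell after siMapk8+9 also fell after siMapk14, and the 7 members called higher without replicate 2 but lower after siMapk14 were CCNB1, CCNB2, CDC25B, CDC25C, BIRC5, NUSAP1 and CDC20. With the length trend described below removed as well, CDC25B alone of these 7 was still called higher, at 0.19, while CCNB1 was at -0.028, CCNB2 at -0.14, CDC25C at -0.089, NUSAP1 at -0.029, CDC20 at -0.14 and BIRC5 at 0.12, none past the threshold.

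**Figure D2:**
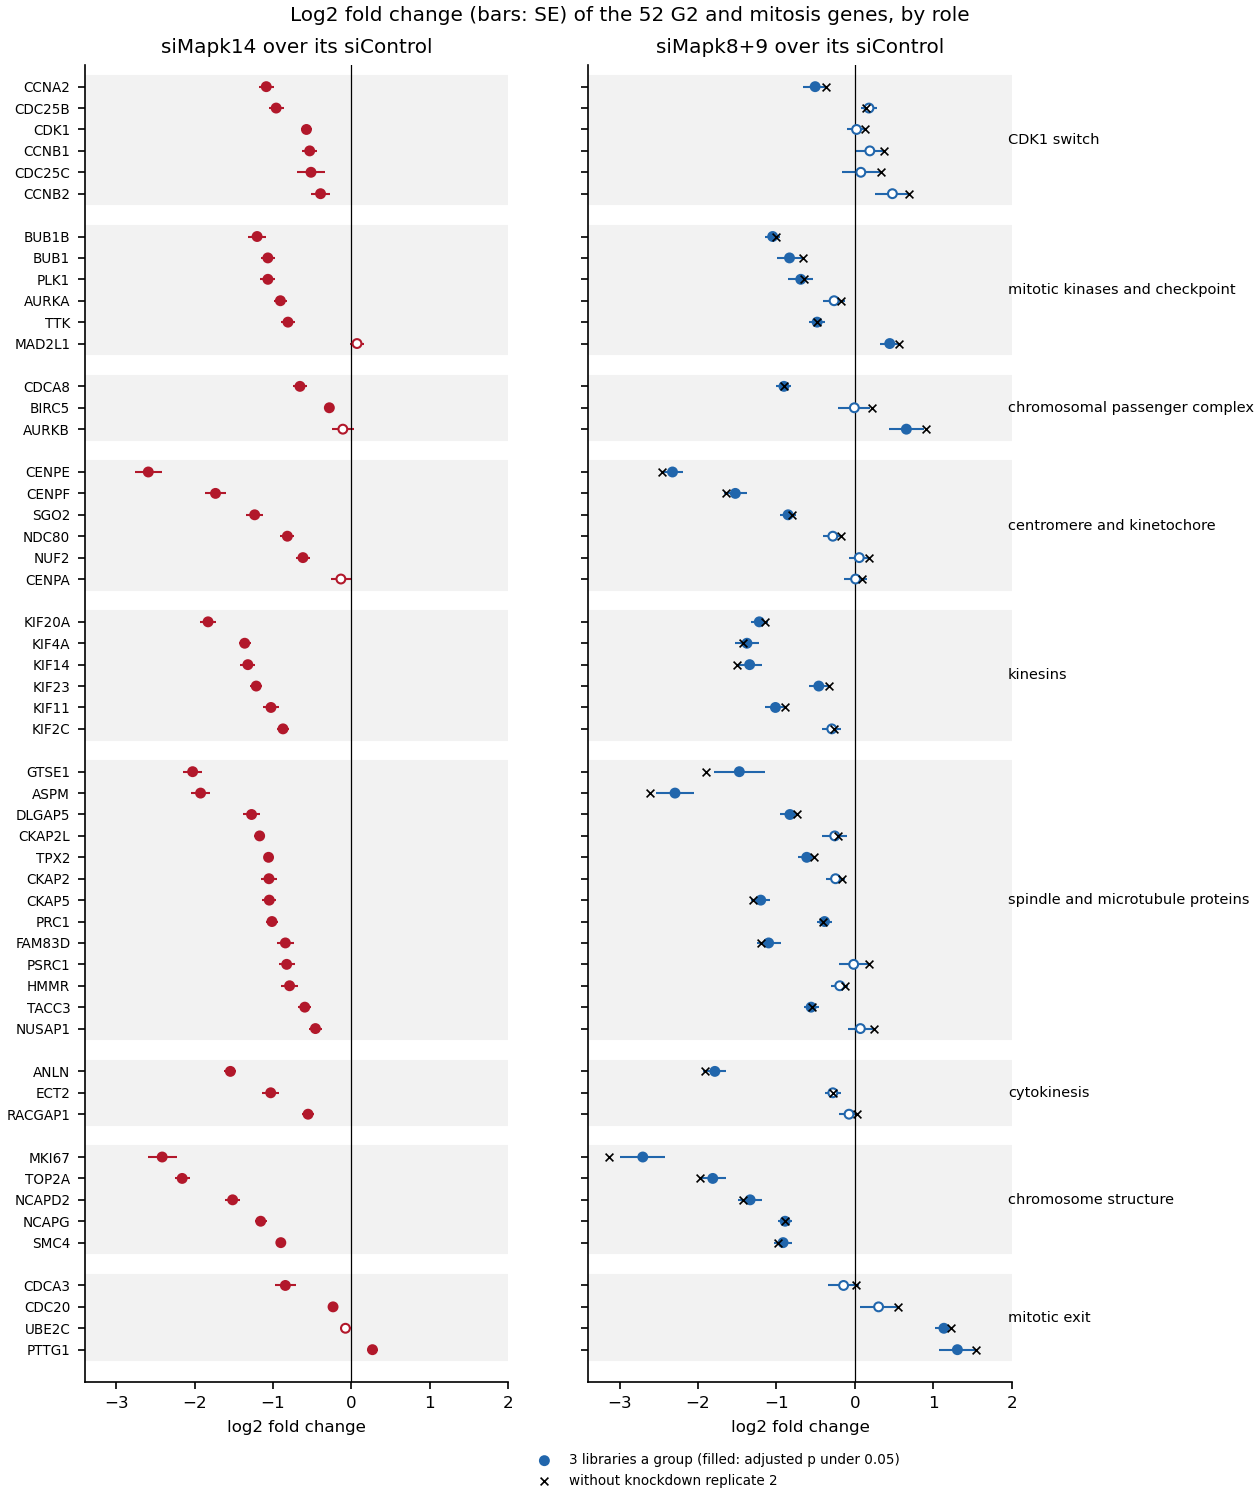
Log2 fold change of each of the 52 genes, grouped by role, for siMapk14 over its siControl (left) and siMapk8+9 over its siControl (right), with bars of 1 SE. Filled points have an adjusted p under 0.05, and crosses show siMapk8+9 without its replicate 2. After siMapk14 47 genes are lower, and after siMapk8+9 28 are lower and 4 higher, with PTTG1 and UBE2C at the right edge of both panels' lowest group.

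The genes that switch CDK1 on were all lower after siMapk14, 6 of 6 with a median log2 fold change of -0.55, whereas after siMapk8+9 only CCNA2 of the 6 fell and the median was 0.13. Without replicate 2, 1 was lower and 4 higher with a median of 0.24. With all libraries and the length trend removed, however, 2 were lower (CCNA2 and CDK1), 0 higher, 5 of the 6 lay below 0 and the median turned to -0.29. Both steps together left 2 lower (CCNA2 and CDK1) and 1 higher (CDC25B), 5 of the 6 below 0 and a median of -0.11. CCNB1, cyclin B1, had 126, 156 and 134 CPM in siMapk14, against 218, 195 and 188 CPM in its siControl. The groups did not overlap, and the log2 fold change was -0.53 ± 0.09 (adjusted p = 0.00102). In the other experiment CCNB1 had 235, 163 and 257 CPM in siMapk8+9, against 189, 196 and 187 CPM in its siControl. Replicates 1 and 3 were above every control and replicate 2 below them, so that the log2 fold change was 0.19 ± 0.18 (adjusted p = 0.393) with it and 0.37 ± 0.05 (adjusted p = 3.95e-04) without it. CDK1, the kinase itself, had 63.0, 71.7 and 73.2 CPM in siMapk14, against 106, 104 and 100.3 CPM in its siControl, a log2 fold change of -0.57 ± 0.07 (adjusted p = 1.70e-04) with no overlap. It had 113, 95.6 and 124 CPM in siMapk8+9, against 115, 104 and 108 CPM in its siControl, with 0.02 ± 0.12 (adjusted p = 0.892) and, without replicate 2, 0.13 ± 0.07 (adjusted p = 0.121). The siMapk8+9 libraries of CDK1 spread around the controls.

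CCNB2, which stands beside CCNB1 as a B-type cyclin, had 56.6, 79.7 and 58.7 CPM in siMapk14, against 92.1, 82.5 and 80.6 CPM in its siControl, a narrow separation with a log2 fold change of -0.39 ± 0.13 (adjusted p = 0.0242). That call did not hold when siMapk14 replicate 1, siMapk14 replicate 3 or siControl replicate 1 was left out. CCNB2 had 116, 81.3 and 155 CPM in siMapk8+9, against 83.5, 84.6 and 84.2 CPM in its siControl, and only replicate 2 was not above the controls. Its log2 fold change was 0.48 ± 0.22 (adjusted p = 0.111), and 0.70 ± 0.10 (adjusted p = 6.99e-04) without that library. CCNA2, cyclin A2, had 31.6, 27.1 and 32.9 CPM in siMapk14, against 70.2, 62.4 and 63.0 CPM in its siControl, at -1.09 ± 0.10 (adjusted p = 2.21e-05). It had 68.2, 47.0 and 56.7 CPM in siMapk8+9, against 84.6, 81.2 and 77.7 CPM in its siControl, at -0.51 ± 0.15 (adjusted p = 0.0271) and -0.36 ± 0.09 (adjusted p = 0.0101) without replicate 2, and both knockdowns lay below their controls. The siMapk8+9 call of CCNA2 was lost when replicate 3 or any 1 of the controls was left out.

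CDC25B, a phosphatase that activates CDK1, had the largest difference between the experiments among these 6, at -1.15 ± 0.14 (adjusted p = 3.56e-04). It had 100.1, 111 and 84.4 CPM in siMapk14, against 199, 189 and 186 CPM in its siControl, at -0.96 ± 0.10 (adjusted p = 4.20e-05). It had 135, 156 and 150.3 CPM in siMapk8+9, against 130.0, 129 and 131 CPM in its siControl, where all 3 libraries were above the controls at 0.18 ± 0.10 (adjusted p = 0.167) and 0.15 ± 0.06 (adjusted p = 0.0461) without replicate 2. CDC25C, its relative, was at -0.52 ± 0.17 (adjusted p = 0.0301) after siMapk14, a call lost in 5 of the 6 fits that leave out a library. The log2 fold change after siMapk8+9 was 0.08 ± 0.24 (adjusted p = 0.808) with all libraries and 0.34 ± 0.10 (adjusted p = 0.0202) without replicate 2.

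Among the mitotic kinases and spindle checkpoint genes 5 of 6 fell after siMapk14 and 4 of 6 after siMapk8+9, and MAD2L1 departed from the others in both experiments. PLK1, needed for entry and spindle assembly, had 24.7, 30.8 and 27.5 CPM in siMapk14, against 59.9, 58.4 and 55.1 CPM in its siControl, at -1.07 ± 0.09 (adjusted p = 2.36e-05). It had 40.8, 32.2 and 27.3 CPM in siMapk8+9, against 53.5, 53.6 and 54.7 CPM in its siControl, at -0.69 ± 0.16 (adjusted p = 0.0106) and -0.64 ± 0.15 (adjusted p = 0.00554) without replicate 2, with no overlap in either experiment. AURKA, the kinase of spindle poles, had 49.2, 50.5 and 58.4 CPM in siMapk14, against 106, 96.7 and 94.8 CPM in its siControl, at -0.91 ± 0.09 (adjusted p = 3.20e-05). It had 93.6, 68.8 and 68.2 CPM in siMapk8+9, against 92.01, 93.4 and 91.4 CPM in its siControl, where replicate 1 was at the level of the controls, at -0.26 ± 0.14 (adjusted p = 0.163) and -0.17 ± 0.12 (adjusted p = 0.236) without replicate 2. The checkpoint genes TTK, BUB1 and BUB1B lay between -1.20 and -0.81 on the log2 scale after siMapk14 and between -1.05 and -0.48 after siMapk8+9, lower in both (-1.01 to -0.48 without replicate 2).

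MAD2L1 encodes MAD2, the checkpoint protein that binds CDC20. It had 86.1, 81.2 and 69.7 CPM in siMapk14, against 76.4, 75.03 and 73.8 CPM in its siControl, overlapping groups at 0.07 ± 0.08 (adjusted p = 0.495). It had 106, 79.3 and 92.4 CPM in siMapk8+9, against 70.9, 67.4 and 65.2 CPM in its siControl, where all 3 knockdown libraries were above the controls. The log2 fold change was 0.44 ± 0.13 (adjusted p = 0.0254), and 0.56 ± 0.08 (adjusted p = 5.61e-04) without replicate 2. MAD2L1 was higher there with the length trend removed as well, at 1.06 ± 0.17 (adjusted p = 0.00471) and 1.24 ± 0.07 (adjusted p = 1.10e-05) without replicate 2. It was at -0.26 with total counts in place of TMM, and its call at 0.44 was lost when any 1 library other than replicate 2 was left out. An antisense gene overlaps its exons, and no strand is given for the libraries.

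The chromosomal passenger complex corrects faulty attachments and guides cytokinesis, and its 3 subunits among the 52 differed from each other. Its scaffold INCENP is given with the other kinetochore and centromere genes below. AURKB, its kinase, had 54.5, 52.4 and 35.6 CPM in siMapk14, against 51.9, 49.7 and 51.4 CPM in its siControl, at -0.11 ± 0.14 (adjusted p = 0.532) with overlap. It had 73.7, 39.0 and 63.4 CPM in siMapk8+9, against 36.8, 37.0 and 37.2 CPM in its siControl, all above the controls but replicate 2 by little, at 0.66 ± 0.23 (adjusted p = 0.0464) and 0.90 ± 0.08 (adjusted p = 4.90e-05) without it. That higher level of AURKB turned to -0.31 with the length trend removed and to -0.09 with total counts, and the call was lost in the 5 fits that leave out any other library. BIRC5, survivin, had 76.9, 77.9 and 73.7 CPM in siMapk14, against 93.7, 94.0 and 90.1 CPM in its siControl, below the controls at -0.28 ± 0.06 (adjusted p = 0.00326). It had 104, 61.6 and 103 CPM in siMapk8+9, against 85.5, 93.1 and 89.9 CPM in its siControl, where replicate 2 alone was below the controls, so that the value was -0.01 ± 0.21 (adjusted p = 0.981) with it and 0.22 ± 0.06 (adjusted p = 0.0163) without it. CDCA8, borealin, was lower in both, at -0.66 ± 0.09 (adjusted p = 3.58e-04) after siMapk14 and -0.90 ± 0.10 (adjusted p = 8.17e-04) after siMapk8+9 (-0.91 ± 0.07 without replicate 2).

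At the centromere and kinetochore, 5 of 6 members fell after siMapk14 and 3 of 6 after siMapk8+9 (3 without replicate 2). Removal of the length trend left 6 of 6 lower in both experiments, also without replicate 2. CENPE had 5.16, 9.35 and 7.00 CPM in siMapk14, against 45.7, 41.5 and 40.9 CPM in its siControl, the lowest log2 fold change of all 52 at -2.59 ± 0.17 (adjusted p = 7.29e-06). It had 11.6, 14.1 and 10.7 CPM in siMapk8+9, against 61.7, 61.0 and 62.0 CPM in its siControl, at -2.33 ± 0.14 (adjusted p = 2.20e-04) and -2.45 ± 0.09 (adjusted p = 5.50e-07) without replicate 2. No knockdown library of CENPE reached the lowest control in either experiment. With the length trend removed CENPE was at -1.98 after siMapk14, where GTSE1 was the lowest of the 52 at -1.99. In the same step CENPE was at -1.47 after siMapk8+9 (-1.51 without replicate 2). CENPF, a large kinetochore protein of late G2, had 43.4, 55.0 and 62.7 CPM in siMapk14, against 198, 176 and 164 CPM in its siControl, at -1.73 ± 0.13 (adjusted p = 1.06e-05). It had 70.4, 82.7 and 58.5 CPM in siMapk8+9, against 210.4, 197 and 203 CPM in its siControl, at -1.52 ± 0.14 (adjusted p = 6.55e-04) and -1.64 ± 0.09 (adjusted p = 2.99e-06) without replicate 2, again with no overlap. With the length trend removed CENPF was at -1.04 after siMapk14 and -0.53 after siMapk8+9 (-0.57 without replicate 2).

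NDC80, part of the complex that grips microtubules, had 33.1, 30.2 and 28.9 CPM in siMapk14, against 57.3, 54.3 and 50.5 CPM in its siControl, at -0.82 ± 0.09 (adjusted p = 6.35e-05). It had 50.2, 38.3 and 43.5 CPM in siMapk8+9, against 54.8, 51.9 and 53.3 CPM in its siControl, close below the controls at -0.28 ± 0.13 (adjusted p = 0.105) and -0.17 ± 0.08 (adjusted p = 0.104) without replicate 2. NUF2, its partner in the complex, was at -0.62 ± 0.09 (adjusted p = 3.54e-04) after siMapk14 and 0.06 ± 0.14 (adjusted p = 0.747) after siMapk8+9 (0.18 ± 0.07 (adjusted p = 0.0603) without replicate 2). SGO2, a shugoshin of the centromere, was lower in both, at -1.23 ± 0.11 after siMapk14 and -0.85 ± 0.10 after siMapk8+9 (-0.81 ± 0.07 without replicate 2). CENPA, the histone H3 variant that marks centromeres, had 16.9, 22.7 and 23.5 CPM in siMapk14, against 23.4, 23.4 and 22.5 CPM in its siControl, at -0.14 ± 0.13 (adjusted p = 0.399). It had 26.0, 21.1 and 22.3 CPM in siMapk8+9, against 23.4, 24.5 and 20.8 CPM in its siControl, at 0.01 ± 0.14 (adjusted p = 0.959) and 0.09 ± 0.13 (adjusted p = 0.546) without replicate 2, and the groups overlapped in both experiments. With the length trend removed CENPA was lower in both, at -0.73 ± 0.14 (adjusted p = 0.00233) after siMapk14 and -0.78 ± 0.14 (adjusted p = 0.0061) after siMapk8+9 (-0.84 ± 0.13 without replicate 2).

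All 6 kinesins were lower after siMapk14, with a median log2 fold change of -1.27, and 5 of 6 after siMapk8+9, with -1.12 (-1.02 without replicate 2). Removal of the length trend left 6 of 6 lower after siMapk14, with a median of -0.96. After siMapk8+9 it left 3 of 6, with -0.50 (4 of 6, with -0.43, without replicate 2). KIF20A, a motor of the central spindle, had 23.0, 24.3 and 24.1 CPM in siMapk14, against 97.4, 79.1 and 77.1 CPM in its siControl, at -1.83 ± 0.11 (adjusted p = 5.28e-06). It had 46.4, 41.8 and 48.6 CPM in siMapk8+9, against 110.4, 103 and 104 CPM in its siControl, at -1.22 ± 0.11 (adjusted p = 4.54e-04) and -1.15 ± 0.07 (adjusted p = 4.79e-06) without replicate 2. KIF4A, a kinesin of chromosome arms, had 30.6, 31.0 and 28.8 CPM in siMapk14, against 82.4, 75.5 and 74.1 CPM in its siControl, at -1.36 ± 0.08 (adjusted p = 4.97e-06). It had 38.2, 37.4 and 27.0 CPM in siMapk8+9, against 91.0, 89.0 and 87.2 CPM in its siControl, at -1.38 ± 0.15 (adjusted p = 9.60e-04) and -1.43 ± 0.13 (adjusted p = 4.71e-05) without replicate 2. All knockdown libraries of both genes lay below their controls, and the difference between the experiments was -0.62 ± 0.15 (adjusted p = 0.015) for KIF20A and 0.00 ± 0.17 (adjusted p = 0.993) for KIF4A.

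KIF23, the kinesin of centralspindlin, had 56.7, 63.6 and 53.6 CPM in siMapk14, against 139.8, 134 and 129 CPM in its siControl, at -1.21 ± 0.08 (adjusted p = 6.40e-06). It had 99.8, 76.2 and 96.7 CPM in siMapk8+9, against 124, 122 and 128 CPM in its siControl, at -0.46 ± 0.13 (adjusted p = 0.0219) and -0.33 ± 0.06 (adjusted p = 0.00123) without replicate 2, a call lost when any 1 of the controls was left out. KIF11, the motor that separates spindle poles, and KIF14 were at -1.03 ± 0.10 and -1.32 ± 0.09 after siMapk14 and at -1.01 ± 0.13 and -1.34 ± 0.16 after siMapk8+9 (-0.89 ± 0.07 and -1.50 ± 0.10 without replicate 2). KIF2C, which takes microtubules apart, was lower after siMapk14 at -0.87 ± 0.08 (adjusted p = 3.20e-05). It did not pass after siMapk8+9, at -0.29 ± 0.12 (adjusted p = 0.0813) and -0.27 ± 0.11 (adjusted p = 0.0619) without replicate 2.

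The spindle and microtubule proteins form the largest role, and all 13 fell after siMapk14 while 8 of 13 fell after siMapk8+9. ASPM, a spindle pole protein, had 16.8, 22.7 and 23.5 CPM in siMapk14, against 85.4, 79.3 and 74.5 CPM in its siControl, at -1.92 ± 0.13 (adjusted p = 6.95e-06). It had 14.9, 29.0 and 19.7 CPM in siMapk8+9, against 109, 101 and 107 CPM in its siControl, at -2.29 ± 0.24 (adjusted p = 8.00e-04) and -2.61 ± 0.11 (adjusted p = 1.11e-06) without replicate 2. GTSE1, which binds growing microtubule ends and restrains p53, had 7.53, 6.91 and 6.35 CPM in siMapk14, against 29.4, 28.2 and 26.7 CPM in its siControl, at -2.03 ± 0.12 (adjusted p = 5.01e-06). It had 9.36, 14.3 and 5.04 CPM in siMapk8+9, against 27.1, 27.4 and 27.9 CPM in its siControl, at -1.47 ± 0.33 (adjusted p = 0.00934) and -1.90 ± 0.20 (adjusted p = 1.00e-04) without replicate 2. Replicate 2 held the highest of the 3 knockdown values for both genes, still below every control. With the length trend removed ASPM was at -1.26 after siMapk14 and -1.36 after siMapk8+9 (-1.58 without replicate 2). GTSE1 was then at -1.99 and -1.39 (-1.77 without replicate 2). TPX2, the activator of AURKA, had 111, 112 and 107 CPM in siMapk14, against 241, 225 and 219.7 CPM in its siControl, at -1.06 ± 0.06 (adjusted p = 4.95e-06). It had 163, 136 and 164 CPM in siMapk8+9, against 240.1, 235 and 233 CPM in its siControl, at -0.61 ± 0.11 (adjusted p = 0.00474) and -0.52 ± 0.04 (adjusted p = 2.98e-05) without replicate 2.

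CKAP2, CKAP2L and PSRC1, which bind spindle microtubules, fell after siMapk14 and did not pass after siMapk8+9. CKAP2L had 38.4, 43.7 and 40.9 CPM in siMapk14, against 90.9, 92.6 and 93.1 CPM in its siControl, at -1.17 ± 0.07 (adjusted p = 5.39e-06). It had 86.6, 67.7 and 57.4 CPM in siMapk8+9, against 85.7, 83.04 and 84.2 CPM in its siControl, with replicate 1 above the controls, at -0.26 ± 0.16 (adjusted p = 0.205) and -0.21 ± 0.15 (adjusted p = 0.243) without replicate 2. CKAP2 had 49.4, 39.1 and 38.2 CPM in siMapk14, against 94.0, 83.4 and 85.3 CPM in its siControl, at -1.05 ± 0.11 (adjusted p = 4.78e-05). It had 82.2, 75.4 and 97.3 CPM in siMapk8+9, against 106, 99.0 and 97.3 CPM in its siControl, where replicate 3 alone reached the controls, at -0.25 ± 0.12 (adjusted p = 0.132) and -0.16 ± 0.08 (adjusted p = 0.115) without replicate 2. PSRC1 had 16.6, 16.9 and 17.5 CPM in siMapk14, against 33.3, 28.8 and 28.4 CPM in its siControl, at -0.83 ± 0.10 (adjusted p = 1.44e-04). It had 29.0, 18.9 and 29.1 CPM in siMapk8+9, against 24.3, 27.4 and 25.4 CPM in its siControl, with replicate 2 alone below the controls, at -0.02 ± 0.19 (adjusted p = 0.951) and 0.19 ± 0.10 (adjusted p = 0.128) without it.

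The other 7 of this role ranged in log2 fold change from -1.27 (DLGAP5) to -0.46 (NUSAP1) after siMapk14. CKAP5, a microtubule polymerase, and FAM83D were at -1.20 ± 0.12 and -1.10 ± 0.15 after siMapk8+9 and at -1.05 ± 0.09 and -0.84 ± 0.11 after siMapk14, and at -1.30 ± 0.05 and -1.20 ± 0.12 without replicate 2. PRC1, which bundles the central spindle, was at -1.01 ± 0.08 (adjusted p = 1.23e-05) after siMapk14 and -0.39 ± 0.10 (adjusted p = 0.0149) after siMapk8+9 (-0.41 ± 0.05 without replicate 2), and that second call was lost when any 1 of the controls was left out. DLGAP5 and TACC3 were lower after siMapk8+9, at -0.83 ± 0.12 and -0.56 ± 0.10 (-0.73 ± 0.08 and -0.54 ± 0.07 without replicate 2). HMMR did not pass, at -0.19 ± 0.11 (adjusted p = 0.176) (-0.13 ± 0.08 without replicate 2), nor did NUSAP1 at 0.07 ± 0.16 (adjusted p = 0.736), which was at 0.24 ± 0.05 (adjusted p = 0.00291) without replicate 2.

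Of the 3 cytokinesis genes, all fell after siMapk14 and ANLN alone after siMapk8+9. ANLN encodes anillin, the scaffold of the contractile ring. It had 98.9, 113 and 99.3 CPM in siMapk14, against 324, 292 and 289 CPM in its siControl, at -1.54 ± 0.08 (adjusted p = 3.47e-06). It had 111, 154 and 126 CPM in siMapk8+9, against 462, 446 and 443 CPM in its siControl, at -1.79 ± 0.15 (adjusted p = 4.29e-04) and -1.92 ± 0.06 (adjusted p = 2.56e-07) without replicate 2, below all controls in both experiments. RACGAP1, of centralspindlin, had 98.0, 89.1 and 83.7 CPM in siMapk14, against 137, 131 and 129 CPM in its siControl, at -0.55 ± 0.07 (adjusted p = 1.86e-04). It had 119.5, 103 and 137 CPM in siMapk8+9, against 129, 124 and 126 CPM in its siControl, scattered around the controls at -0.07 ± 0.13 (adjusted p = 0.642) and 0.03 ± 0.06 (adjusted p = 0.666) without replicate 2. ECT2, the exchange factor that activates RHOA at the division plane, was at -1.03 ± 0.11 (adjusted p = 5.64e-05) after siMapk14. It was at -0.28 ± 0.10 (adjusted p = 0.0573) after siMapk8+9, and at -0.28 ± 0.08 (adjusted p = 0.0149) without replicate 2.

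Genes of chromosome structure had the lowest median of the 9 roles in both experiments, and all 5 were lower after both knockdowns, with a median log2 fold change of -1.52 after siMapk14 and -1.34 after siMapk8+9 (-1.43 without replicate 2). MKI67 (chr10:128096659-128126423 in RefSeq) encodes Ki-67, which coats mitotic chromosomes. It had 20.8, 14.2 and 26.9 CPM in siMapk14, against 124, 109.5 and 103 CPM in its siControl, at -2.41 ± 0.18 (adjusted p = 1.16e-05). It had 16.7, 36.0 and 19.98 CPM in siMapk8+9, against 160.4, 159 and 164 CPM in its siControl, the lowest of the 52 in that experiment at -2.70 ± 0.28 (adjusted p = 8.40e-04), and -3.13 ± 0.08 (adjusted p = 1.33e-07) without replicate 2. Replicate 2 was the highest of the knockdown libraries and far below every control. With the length trend removed MKI67 was at -1.70 after siMapk14 and at -1.69 after siMapk8+9, there still the lowest of the 52. The medians of the role were then -1.13 and -0.80 (-0.81 without replicate 2). TOP2A (chr17:40388525-40417896), topoisomerase II alpha, which untangles sister chromatids, had 85.0, 70.0 and 81.1 CPM in siMapk14, against 391, 341 and 324 CPM in its siControl, at -2.16 ± 0.10 (adjusted p = 2.70e-06). It had 122, 153 and 101 CPM in siMapk8+9, against 463, 430.2 and 431 CPM in its siControl, at -1.81 ± 0.17 (adjusted p = 6.51e-04) and -1.97 ± 0.09 (adjusted p = 1.58e-06) without replicate 2. The condensin subunits SMC4, NCAPD2 and NCAPG were at -0.90 ± 0.06, -1.52 ± 0.10 and -1.16 ± 0.08 after siMapk14 and at -0.91 ± 0.12, -1.34 ± 0.15 and -0.89 ± 0.09 after siMapk8+9 (-0.99 ± 0.05, -1.43 ± 0.12 and -0.89 ± 0.06 without replicate 2).

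Genes of mitotic exit had a median log2 fold change of -0.16 after siMapk14 and 0.72 after siMapk8+9 (0.89 without replicate 2), the highest of the 9 roles. That rank did not hold with the length trend removed, where the median was -0.86 after siMapk14 and -0.21 after siMapk8+9 and cytokinesis genes were higher in both, at -0.74 and 0.041. Without replicate 2 the siMapk8+9 medians were then -0.21 for mitotic exit and 0.18 for cytokinesis. UBE2C, the ubiquitin-conjugating enzyme of the anaphase promoting complex, had 145, 169 and 165 CPM in siMapk14, against 165, 169 and 171 CPM in its siControl, overlapping groups at -0.08 ± 0.07 (adjusted p = 0.355). It had 249, 207 and 245 CPM in siMapk8+9, against 108, 107 and 104 CPM in its siControl, wholly above the controls at 1.14 ± 0.11 (adjusted p = 6.97e-04) and 1.23 ± 0.05 (adjusted p = 6.56e-07) without replicate 2, although this higher level turned to -0.11 with the length trend removed and was 0.43 (adjusted p = 0.0601) with total counts. PTTG1 had 145, 164 and 143 CPM in siMapk14, against 128, 122 and 124 CPM in its siControl, wholly above at 0.27 ± 0.07 (adjusted p = 0.00842), a higher level that turned to -0.71 with the length trend removed and to -0.51 with total counts. It had 231, 144 and 277 CPM in siMapk8+9, against 89.8, 87.7 and 85.6 CPM in its siControl, wholly above at 1.31 ± 0.23 (adjusted p = 0.00422) and 1.54 ± 0.07 (adjusted p = 1.87e-06) without replicate 2, which was at -0.05 with the length trend removed. PTTG1 has close copies in the genome (PTTG2 and PTTG3P), so its estimated counts depend on how shared reads were divided.

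CDC20, which activates the anaphase promoting complex, had 149, 144 and 149 CPM in siMapk14, against 186, 171 and 163 CPM in its siControl, below the controls at -0.24 ± 0.07 (adjusted p = 0.0124), a call lost when siControl replicate 1 was left out. It had 206, 117 and 219 CPM in siMapk8+9, against 139.6, 151 and 148 CPM in its siControl, with replicate 2 below the controls and the other 2 libraries above them. The log2 fold change was 0.30 ± 0.23 (adjusted p = 0.304), and 0.55 ± 0.05 (adjusted p = 7.20e-05) without replicate 2. CDCA3, a part of the ligase that degrades WEE1, was lower after siMapk14 at -0.84 ± 0.13 (adjusted p = 5.74e-04). After siMapk8+9 it was at -0.14 ± 0.20 (adjusted p = 0.573) and 0.01 ± 0.16 (adjusted p = 0.939) without replicate 2.

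**Figure D3:**
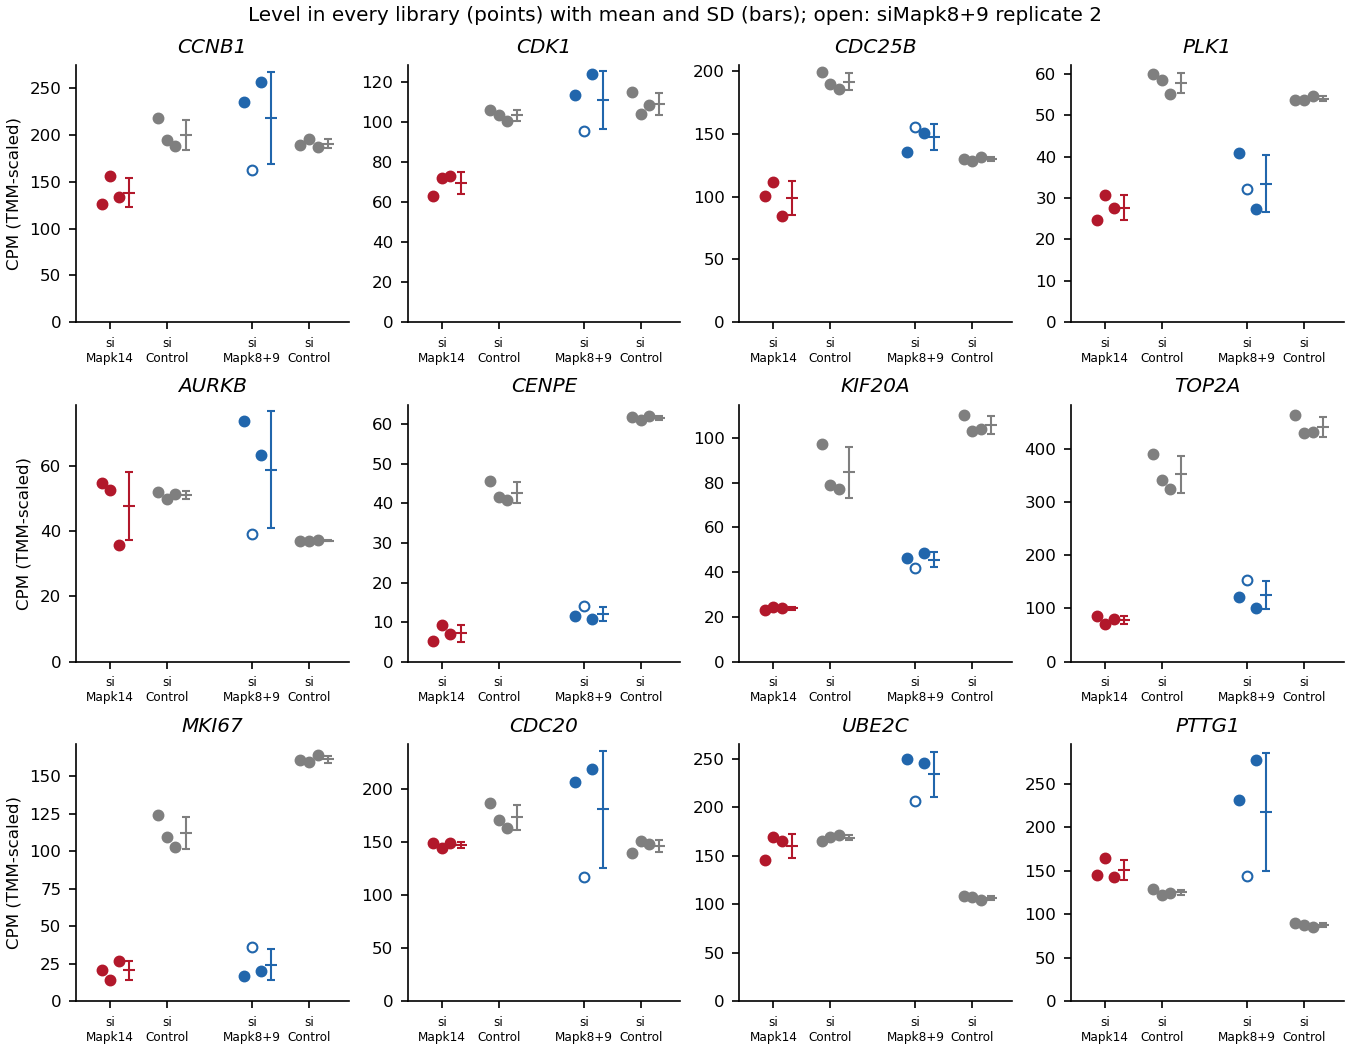
TMM-scaled CPM of 12 G2 and mitosis genes in each of the 12 libraries (points), with mean and SD of the 3 libraries as bars, in siMapk14 and its siControl (left pair) and siMapk8+9 and its siControl (right pair). Each axis starts at 0 and the open point is siMapk8+9 replicate 2. CENPE, TOP2A and MKI67 are far below the controls in both pairs, whereas UBE2C and PTTG1 are above them in the right pair, for PTTG1 at 231, 144 and 277 CPM against 85.6 to 89.8 CPM.

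Per kilobase of effective transcript length, levels in the siControl of siMapk14 ran from 5.4 CPM per kilobase for CENPE to 349 CPM per kilobase for UBE2C, with PTTG1 next at 291. In the siControl of siMapk8+9 UBE2C stood at 220.4 and PTTG1 at 204, so the control level of UBE2C itself differed by -0.66 (log2) between the experiments, the most negative among the 52, while the median member differed by -0.02.

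The size of a member's change went with the length of its transcript in both experiments. Effective length, the number of positions at which a fragment can start, was derived from the deposited counts and FPKM. Across the 52 members the Spearman correlation of log2 fold change with effective length was -0.74 after siMapk14 and -0.76 after siMapk8+9 (-0.77 without replicate 2), and across all genes with a length it was -0.58 and -0.59. These are descriptions across genes that share libraries, not replicates. The 17 shortest members, up to 2052 bases, had a median log2 fold change of -0.53 after siMapk14, where all tested genes in that range of lengths had 0.52. The 17 longest, from 3830 bases, had -1.32, where all genes of those lengths had -0.47. After siMapk8+9 the shortest had 0.06 and the longest -1.34 (0.19 and -1.43 without replicate 2), where all genes of those lengths had 0.68 and -0.64. Of 52 members 51 lay below the lower quartile of the genes in the same of 20 length bins after siMapk14, all but MAD2L1, and 22 of 52 did so after siMapk8+9.

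Removing the length trend within each library left 51 members lower and 1 higher (MAD2L1 at 0.51 ± 0.09) after siMapk14, where 21.9% and 24.4% of all genes were called. The median was then -0.92 and the correlation with length -0.06. AURKB, CENPA, UBE2C and PTTG1 were all called lower in that fit, at -0.82, -0.73, -1.01 and -0.71. After siMapk8+9 the same step left 31 lower and 1 higher (MAD2L1), against 16.3% and 21.7% of all genes, with a median of -0.42 and a correlation of -0.22. BUB1, KIF11, KIF23 and TPX2 no longer passed the test in that fit, at -0.50, -0.43, -0.25 and -0.38. In turn 7 members that had not passed were called lower, CDK1 at -0.43, AURKA at -0.58, CENPA at -0.78, NDC80 at -0.60, NUF2 at -0.37, PSRC1 at -0.56 and CDCA3 at -1.06. With replicate 2 left out as well, 35 were lower and 3 higher, against 29% and 31.8% of all genes. BUB1, KIF11 and TPX2 were called lower in that last fit, at -0.29, -0.24 and -0.25, and KIF23 was not, at -0.086. The cause of the length trend was not tested, and knockdown libraries differ from controls in depth and mitochondrial share as well.

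**Figure D4:**
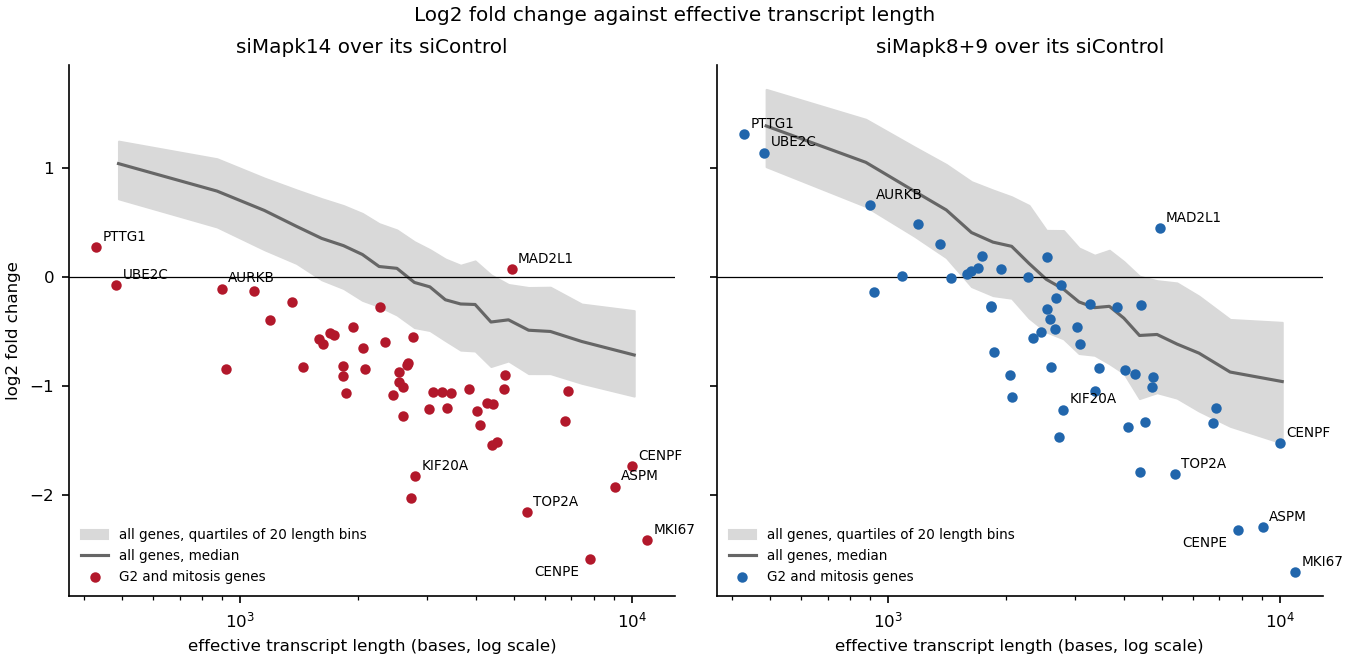
Log2 fold change (vertical) of the 52 members (points) against effective transcript length in bases on a log axis, for siMapk14 over its siControl (left) and siMapk8+9 over its siControl (right). The grey line and band are the median and quartiles of all genes in 20 length bins. After siMapk14 51 of 52 members lie under the band, and after siMapk8+9 22 of 52 do.

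The effects of the knockdowns were compared gene by gene by fitting the 12 libraries together, where the value is the effect of siMapk14 minus that of siMapk8+9, each against its own siControl. The difference was past the threshold in 21 of 52 members, and in all 21 it was negative, where 9.02% of all genes were called negative and 6.87% positive. The median difference was -0.47, against -0.02 over all genes. Without siMapk8+9 replicate 2, 30 differences were negative and 3 positive, against 17.1% and 20% of all genes, and with the length trend removed 24 were negative and 0 positive, against 11.1% and 7.49%. With both steps, 34 were negative and 0 positive, against 18.6% and 15.5%, so the 3 positive differences were not called in that fit. Numbers of calls were sensitive to single libraries, with 11 or 12 left without siControl replicate 1 or 2 of siMapk14, and 12, 10 or 11 without siControl replicate 1, 2 or 3 of siMapk8+9. The batch of the experiments is taken out only through each experiment's own controls.

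The most negative differences were those of UBE2C at -1.22 ± 0.13 (adjusted p = 1.06e-04), CDC25B at -1.15 ± 0.14 (adjusted p = 3.56e-04) and PTTG1 at -1.05 ± 0.25 (adjusted p = 0.0141). CKAP2L followed at -0.92 ± 0.17, CCNB2 at -0.87 ± 0.27, PSRC1 at -0.81 ± 0.22 and CKAP2 at -0.81 ± 0.17. This order changed with the length trend removed, where CDC25B was lowest at -1.16 and CKAP2L was at -1.06. No mitotic exit gene, UBE2C and PTTG1 included, then lay under -0.90. With siMapk8+9 replicate 2 left out as well, CKAP2L was at -1.18, CDC25B at -1.16 and no mitotic exit gene under -0.74. By role, 5 of the 6 CDK1 switch genes and 0 of the 5 chromosome structure genes were past the threshold, a contrast that was not tested. With the length trend removed these were 5 and 2 (TOP2A at -0.52 and NCAPG at -0.40), and of the 5 switch genes CDC25B alone passed in all 12 fits that leave out a library, since the call of CCNA2 was lost in 11, those of CCNB1 and CCNB2 in 10 each and that of CDK1 in 1. MKI67 had a difference of 0.25 ± 0.35 (adjusted p = 0.673), CENPE of -0.28 ± 0.24 (adjusted p = 0.462), TOP2A of -0.36 ± 0.20 (adjusted p = 0.241) and ASPM of 0.34 ± 0.27 (adjusted p = 0.413), none past the threshold. Without replicate 2 the positive differences were those of MKI67 at 0.77 ± 0.25 (adjusted p = 0.0268), ASPM at 0.74 ± 0.19 (adjusted p = 0.00791) and ANLN at 0.42 ± 0.10 (adjusted p = 0.00567). Across the 52 members the log2 fold changes of the 2 experiments, which share no library, had a Spearman correlation of 0.87 (0.87 without replicate 2 and 0.66 with the length trend removed). Across all genes the correlation was 0.69 (0.71 without replicate 2 and 0.50 with the length trend removed).

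**Figure D5:**
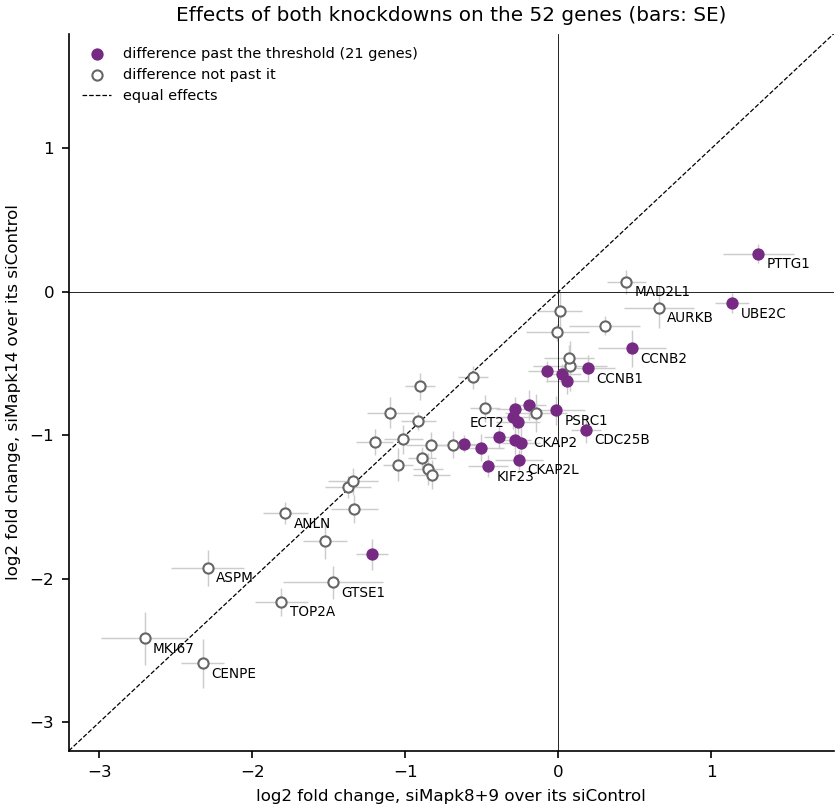
Log2 fold change of each of the 52 genes after siMapk14 (vertical) against that after siMapk8+9 (horizontal), each over its own siControl, with bars of 1 SE and a dashed line of equal effects. Filled points are the 21 genes whose difference passed the threshold, all under the line. MKI67, CENPE, TOP2A, ASPM and ANLN at the lower left are open points.

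Other genes of the pathway were read from lists of their own, whose counts stand against 30.5% of all genes called lower and 29.4% higher after siMapk14, and 26.1% and 26.8% after siMapk8+9 (37.5% and 33.6% without replicate 2). Counts with the length trend removed stand against 21.9% and 24.4% after siMapk14, and 16.3% and 21.7% after siMapk8+9 (29% and 31.8% without replicate 2). Among 15 activators of G2 and mitosis transcription 6 fell and 4 rose after siMapk14, and 6 fell and 1 rose after siMapk8+9 (6 and 4 without replicate 2). These counts became 4 and 3 in siMapk14 and 2 and 3 in siMapk8+9 (4 and 4 without replicate 2) with the length trend removed. FOXM1, which activates many of the 52 members, had 80.4, 67.05 and 67.4 CPM in siMapk14, against 116, 111 and 108 CPM in its siControl, at -0.64 ± 0.08 (adjusted p = 1.77e-04). It had 73.7, 61.6 and 78.5 CPM in siMapk8+9, against 109.6, 115 and 112 CPM in its siControl, at -0.66 ± 0.12 (adjusted p = 0.00439) and -0.55 ± 0.06 (adjusted p = 1.08e-04) without replicate 2. MYBL2, the gene of B-MYB, had 64.7, 60.2 and 50.3 CPM in siMapk14, against 87.4, 83.7 and 86.2 CPM in its siControl, at -0.56 ± 0.09 (adjusted p = 8.71e-04), and was at -0.15 ± 0.13 (adjusted p = 0.352) after siMapk8+9 (-0.03 ± 0.07 without replicate 2). The groups of FOXM1 did not overlap in either experiment, but with the length trend removed its siMapk8+9 value was -0.39 (adjusted p = 0.0753), no longer past the threshold. E2F1, an activator of S phase genes, was at -0.65 ± 0.13 (adjusted p = 0.0021) after siMapk14 and -0.80 ± 0.24 (adjusted p = 0.0276) after siMapk8+9 (-1.12 ± 0.11 without replicate 2). LIN37, a subunit shared by DREAM and the activating complex, was higher in both, at 1.04 ± 0.17 (adjusted p = 7.31e-04) after siMapk14 and 1.64 ± 0.26 (adjusted p = 0.00277) after siMapk8+9 (1.90 ± 0.13 without replicate 2), but at 0.19 after siMapk14 and 0.48 after siMapk8+9 with the length trend removed.

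Of 9 repressors, 4 fell and 3 rose after siMapk14, and 4 fell and 4 rose after siMapk8+9, the same without replicate 2. These counts became 2 and 2 in siMapk14 and 3 and 3 in siMapk8+9 (3 and 4 without replicate 2) with the length trend removed. CDKN1A encodes p21, the inhibitor of cyclin-dependent kinases induced by p53. It had 108, 93.5 and 99.8 CPM in siMapk14, against 46.3, 52.1 and 57.0 CPM in its siControl, at 0.96 ± 0.09 (adjusted p = 3.79e-05). It had 107, 160.3 and 77.7 CPM in siMapk8+9, against 14.1, 13.8 and 14.4 CPM in its siControl, a much greater change at 3.03 ± 0.27 (adjusted p = 5.14e-04) and 2.73 ± 0.14 (adjusted p = 2.39e-06) without replicate 2. Replicate 2 was the highest of those libraries, no library overlapped a control, and the difference between the experiments was -2.09 ± 0.28 (adjusted p = 5.44e-04). The controls themselves differed, at 46.3 to 57.0 CPM in the first experiment and 13.8 to 14.4 CPM in the second. E2F7, a repressor of E2F targets, was at -0.84 ± 0.09 (adjusted p = 7.62e-05) after siMapk14 and 0.53 ± 0.19 (adjusted p = 0.0483) after siMapk8+9 (0.32 ± 0.09 without replicate 2). RBL2, the p130 protein of DREAM, was at -0.96 ± 0.12 (adjusted p = 1.55e-04) after siMapk14 and -0.62 ± 0.13 (adjusted p = 0.00657) after siMapk8+9 (-0.71 ± 0.09 without replicate 2). RBL2 did not pass in siMapk8+9 after removal of the length trend, at -0.13 (adjusted p = 0.313).

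Among 11 other regulators of CDK1, 5 fell and 4 rose after siMapk14, and 4 fell and 5 rose after siMapk8+9 (5 and 5 without replicate 2). These counts became 6 and 1 in siMapk14 and 2 and 3 in siMapk8+9 (4 and 4 without replicate 2) with the length trend removed. CCNF, cyclin F, had 6.47, 3.45 and 5.65 CPM in siMapk14, against 30.0, 29.4 and 26.6 CPM in its siControl, at -2.44 ± 0.19 (adjusted p = 1.15e-05). It had 7.02, 9.84 and 5.36 CPM in siMapk8+9, against 36.3, 36.8 and 35.7 CPM in its siControl, at -2.25 ± 0.22 (adjusted p = 7.01e-04) and -2.53 ± 0.13 (adjusted p = 2.57e-06) without replicate 2, below all controls in both. WEE1, the kinase that holds CDK1 off, was at -0.72 ± 0.08 (adjusted p = 6.40e-05) after siMapk14 and at -0.30 ± 0.23 (adjusted p = 0.3) after siMapk8+9 (-0.62 ± 0.09 (adjusted p = 4.80e-04) without replicate 2). CCNB1IP1, a cyclin B1 interacting ubiquitin ligase, was higher in both, at 1.17 ± 0.08 (adjusted p = 8.80e-06) after siMapk14 and 2.15 ± 0.17 (adjusted p = 4.11e-04) after siMapk8+9 (2.31 ± 0.09 without replicate 2).

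Of 17 genes of the anaphase promoting complex and its regulators 5 fell and 9 rose after siMapk14, and 4 fell and 8 rose after siMapk8+9 (5 and 8 without replicate 2). With the length trend removed these were 5 and 4 in siMapk14, where 21.9% and 24.4% of all genes were called. In siMapk8+9 they were then 4 and 5, against 16.3% and 21.7% (5 and 5 without replicate 2, against 29% and 31.8%). The small subunits ANAPC13 and ANAPC16 were higher in both, at 1.02 ± 0.08 and 0.79 ± 0.08 after siMapk14 and 0.91 ± 0.17 and 1.11 ± 0.16 after siMapk8+9 (1.09 ± 0.06 and 1.23 ± 0.11 without replicate 2). The inhibitor FBXO5 (EMI1) was at -0.90 ± 0.08 (adjusted p = 2.63e-05) after siMapk14 and -0.59 ± 0.10 (adjusted p = 0.00367) after siMapk8+9 (-0.57 ± 0.07 without replicate 2), and the activator FZR1 (CDH1) at -0.92 ± 0.12 (adjusted p = 2.05e-04) after siMapk14 and -0.83 ± 0.16 (adjusted p = 0.00574) after siMapk8+9 (-0.98 ± 0.10 without replicate 2), both lower in both experiments. ANAPC13 did not pass in siMapk8+9 after removal of the length trend, at 0.071 (adjusted p = 0.566).

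Of 35 other kinetochore and centromere genes 17 fell and 11 rose after siMapk14, and 7 fell and 7 rose after siMapk8+9 (9 and 15 without replicate 2). These counts depended on length and became 19 and 5 in siMapk14 and 13 and 2 in siMapk8+9 (16 and 8 without replicate 2) with the length trend removed. KNL1, the scaffold that recruits BUB1, had 8.10, 11.7 and 12.9 CPM in siMapk14, against 57.4, 55.3 and 52.6 CPM in its siControl, at -2.33 ± 0.15 (adjusted p = 6.29e-06). It had 18.3, 21.1 and 14.8 CPM in siMapk8+9, against 98.0, 95.003 and 94.4 CPM in its siControl, at -2.39 ± 0.15 (adjusted p = 2.32e-04) and -2.52 ± 0.10 (adjusted p = 7.80e-07) without replicate 2. INCENP, the scaffold of the chromosomal passenger complex, was at -2.05 ± 0.17 (adjusted p = 1.74e-05) after siMapk14 and -1.53 ± 0.47 (adjusted p = 0.0307) after siMapk8+9 (-2.09 ± 0.32 without replicate 2). HJURP, the chaperone that loads CENPA, was at -1.18 ± 0.09 (adjusted p = 1.02e-05) after siMapk14 and at -0.11 ± 0.11 (adjusted p = 0.407) after siMapk8+9 (-0.08 ± 0.09 without replicate 2), and that difference was -1.07 ± 0.14 (adjusted p = 4.68e-04). INCENP did not pass in siMapk8+9 once the length trend was removed, at -1.16 (adjusted p = 0.0661).

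Of 16 other condensin and cohesin genes 15 fell and 0 rose after siMapk14, and 11 fell and 0 rose after siMapk8+9 (12 and 1 without replicate 2). With the length trend removed these were 8 and 1 in siMapk14, where 21.9% and 24.4% of all genes were called. In siMapk8+9 they were then 2 and 3, against 16.3% and 21.7% (6 and 7 without replicate 2, against 29% and 31.8%), so this list depended on that step. The condensin II subunits NCAPG2 and NCAPD3 and the condensin subunit SMC2 were at -1.33 ± 0.06, -1.03 ± 0.08 and -1.07 ± 0.07 after siMapk14 and at -0.75 ± 0.17, -1.14 ± 0.16 and -1.21 ± 0.15 after siMapk8+9 (-0.88 ± 0.13, -1.29 ± 0.11 and -1.32 ± 0.12 without replicate 2). NCAPG2 did not pass in siMapk8+9 after that step, at -0.41 (adjusted p = 0.052).

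Of 25 other spindle, centrosome and cytokinesis genes 23 fell and 1 rose after siMapk14, and 12 fell and 3 rose after siMapk8+9 (13 and 7 without replicate 2). These counts became 20 and 0 in siMapk14 and 9 and 1 in siMapk8+9 (10 and 6 without replicate 2) with the length trend removed. HAUS6, a subunit of the augmin complex that branches spindle microtubules, went opposite ways. It had 195, 210.3 and 222 CPM in siMapk14, against 526, 550.1 and 561 CPM in its siControl, at -1.38 ± 0.07 (adjusted p = 3.09e-06). It had 432, 607 and 465 CPM in siMapk8+9, against 281, 264 and 266 CPM in its siControl, at 0.89 ± 0.16 (adjusted p = 0.00408) and 0.74 ± 0.05 (adjusted p = 7.79e-06) without replicate 2. All libraries of HAUS6 were below the controls in siMapk14 and above them in siMapk8+9, and the difference was -2.28 ± 0.17 (adjusted p = 7.13e-06). KIFC1 and KIF20B, both mitotic kinesins, were at -1.24 ± 0.07 and -1.64 ± 0.11 after siMapk14 and at -1.01 ± 0.13 and -1.87 ± 0.34 after siMapk8+9 (-1.14 ± 0.07 and -2.37 ± 0.15 without replicate 2).

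DNA replication genes act in S phase, before the members described above. Of 30, 18 fell and 4 rose after siMapk14 with a median of -0.34, and 16 fell and 5 rose after siMapk8+9 with a median of -0.46 (17 and 8, and -0.52, without replicate 2). These counts became 20 and 1 in siMapk14 and 17 and 0 in siMapk8+9 (18 and 3 without replicate 2) with the length trend removed. UHRF1, which keeps DNA methylation through replication, was at -1.86 ± 0.09 (adjusted p = 3.19e-06) after siMapk14 and -2.08 ± 0.15 (adjusted p = 3.57e-04) after siMapk8+9 (-2.24 ± 0.08 without replicate 2). POLE, a replicative polymerase, was at -1.58 ± 0.10 (adjusted p = 6.29e-06) after siMapk14 and -1.61 ± 0.17 (adjusted p = 8.40e-04) after siMapk8+9 (-1.78 ± 0.11 without replicate 2), and RRM2, of ribonucleotide reductase, at -0.73 ± 0.05 (adjusted p = 9.47e-06) after siMapk14 and -0.24 ± 0.14 (adjusted p = 0.196) after siMapk8+9 (-0.11 ± 0.05 without replicate 2).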

How the data were processed

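Bulk RNA was measured in 12 libraries of MIO-M1 cells, 3 in each of 4 groups, with groups taken from the labels. Per the labels, polyadenylated RNA was captured and cDNA primed at random, with no strand given. GRCh38.p14 is the build in the submitters' processing notes, which also list RSEM 1.3.1, Bowtie2 2.3.4.3 and DESeq2 1.4.5 without saying which step used each. The authors deposited 1 table per experiment (17598 and 17146 genes) of expected counts, estimated fragments per gene that are not normalised and here were rounded to whole numbers. The authors' deposited FPKM served only to derive effective lengths (count over FPKM, where the count reached 10 and the FPKM 0.2). Another 24 columns of per-library values stayed unused, and the other data of the series were not analysed here.

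Counts were analysed in R 4.3.3 with edgeR 4.0.16 (filterByExpr with a minimum count of 10, TMM, robust quasi-likelihood F-tests), each experiment alone, and in 1 fit of 12 libraries for the difference. Adjustment was by Benjamini and Hochberg over all genes, with a threshold of 0.05, and all 52 members passed the filter in every comparison. Before TMM scaling 1 count equals 0.0317 to 0.108 CPM. Alternatives were RLE factors, total counts, leaving out mitochondrially encoded genes, DESeq2 1.42.0, limma-voom (limma 3.58.1), no filter, a filter at a mean of 1 CPM, the replicate number as a block, removal of a lowess trend on effective length (span 0.3), and leaving out each library. Length removal together with leaving out siMapk8+9 replicate 2 was added after seeing the data. The tests were also run on simulated counts with known changes in a small share of genes. Those counts held no length trend, mitochondrial shift or epithelial RNA, so that run does not cover these features.

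Members, lists, tests and motifs were chosen with earlier results of these data known. Library values are given for the 8 lowest and 4 highest called members of each comparison, for those not called in siMapk14, and for a fixed set of 9. Up to 3 genes per list are named by the smallest adjusted p in siMapk14, so they were not picked as typical of their list. FOXM1, MYBL2, E2F1, CDKN1A, WEE1 and FZR1 are named in any case. Promoters and gene positions are from RefSeq (GRCh38.p14), and exon overlaps from GENCODE. Plots used matplotlib 3.10.9 in Python 3.11.15.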

Additional observations from a re-analysis of the deposited data

Results flagged for a closer look

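The effects of siMapk14 and siMapk8+9, each against its own siControl, differed by the test of the difference in 21 members (edgeR, adjusted p under 0.05 over all genes), and 10 of the 21 passed in each of the 12 fits that leave out a library. Values are the siMapk14 effect minus the siMapk8+9 effect on the log2 scale, so a negative one means a lower level after siMapk14 relative to the other experiment. Those 10 were UBE2C at -1.22, CDC25B at -1.15, PTTG1 at -1.05, CKAP2L at -0.92, CKAP2 at -0.81, KIF23 at -0.76, ECT2 at -0.76, NUF2 at -0.68, PRC1 at -0.64 and KIF20A at -0.62.

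The other 11 lost the call in at least 1 such fit. Among the cyclins and CDK1 these were CCNB2 at -0.87, CCNB1 at -0.73, CDK1 at -0.60 and CCNA2 at -0.59. Among spindle and kinetochore genes they were PSRC1 at -0.81, AURKA at -0.65, HMMR at -0.60, KIF2C at -0.59, NDC80 at -0.54, RACGAP1 at -0.49 and TPX2 at -0.45. No member had a difference above 0 past the threshold with all libraries (edgeR, DESeq2 and limma-voom), and without siMapk8+9 replicate 2 there were 3, MKI67, ASPM and ANLN.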

How the results depend on the processing

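Counts of called members (48 in siMapk14, 32 in siMapk8+9) stayed within 1.5 times under every alternative, although total counts gave 46 lower and 1 higher in siMapk8+9 in place of 28 and 4, from 45 to 47 in siMapk14 and from 27 to 40 in siMapk8+9 when 1 library was left out. The difference, with 21 calls, had 12 with total counts, 11 with the replicate block and 34 with the length trend removed and siMapk8+9 replicate 2 left out together, and from 10 to 33 with 1 library left out, and the cause was not tested. Same-numbered deviations correlated between -0.03 and 0.03, which with 3 libraries a group cannot decide whether replicate numbers pair the libraries. The replicate block gave 47 lower and 1 higher in siMapk14 and 27 and 3 in siMapk8+9. Shares of member promoters with the motifs were 61.4% (CHR) and 66.7% (CCAAT) in windows of 200 bases.

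Sign changes in which the member passed the test in at least 1 of the fits compared were as follows. In siMapk14 MAD2L1 was at -0.71 and PTTG1 at -0.51 with total counts, and PTTG1 at -0.71 with the length trend removed. In siMapk8+9 total counts gave CCNB1 -0.54, CDK1 -0.68, CDC25C -0.67, MAD2L1 -0.26, AURKB -0.090, CENPA -0.68, NUF2 -0.65, NUSAP1 -0.66 and CDC20 -0.46. The length trend removed gave CDK1 -0.43, AURKB -0.31, CENPA -0.78, NUF2 -0.37, UBE2C -0.11 and PTTG1 -0.048, and 9 others changed sign with no call in either fit. BIRC5 ran from -0.14 to 0.22 when 1 library was left out, the highest value without replicate 2, and both steps gave CDK1 -0.37, AURKB -0.19, CENPA -0.84, NUF2 -0.29, CKAP2L 0.39, UBE2C -0.27 and PTTG1 -0.020, with 9 others changing sign without a call. At the lowest depth 1 count was 0.108 CPM before TMM scaling.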

Other observations

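Marker lists of other cell types were summed in every library as a check of the label. Photoreceptor and neuron markers summed to 226 to 239 CPM in siMapk14, against 303 to 342 CPM in its siControl, and to 314 to 397 CPM in siMapk8+9, against 406 to 422 CPM in its siControl. Markers of the retinal pigment epithelium summed to 16.5 to 22.1 CPM in siMapk14, against 8.70 to 10.7 CPM in its siControl, and to 8.78 to 18.4 CPM in siMapk8+9, against 3.88 to 4.53 CPM in its siControl. Blood and endothelium markers summed to 39.9 to 46.1 CPM in siMapk14, against 42.3 to 43.0 CPM in its siControl, and to 56.0 to 63.7 CPM in siMapk8+9, against 36.6 to 38.7 CPM in its siControl.

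MAPK14 itself was at 66.1% of its control level in siMapk8+9 (log2 fold change -0.60 ± 0.17, adjusted p = 0.0258 in edgeR), while MAPK8 and MAPK9 were at 99.1% and 95.3% in siMapk14 (adjusted p = 0.905 and 0.498). By replicate of siMapk8+9, MAPK14 was at 69.1, 56.8 and 42.7 CPM, against 83.4 to 87.1 CPM in its siControl. Exons of 22 of the 52 members overlap another gene of the GENCODE annotation, on the same strand in 4 and on the opposite strand in 19, and without a stated strand such reads could be assigned to either gene.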
